A study of Mus musculus with 48 samples.

Results

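The immediate early genes described here are Fos, Fosb, Junb, Egr1, Egr2, Egr4, Npas4, Nr4a1, Arc and Dusp1. They were taken as a list of symbols, and all 10 were found once among the 27082 genes tabulated for B6 mice and once among the 18939 genes tabulated for APOE-TR mice. Cerebral cortex RNA came from 48 mice in 12 groups of 4. B6 denotes C57BL/6J mice, and APOE3 and APOE4 denote targeted replacement (APOE-TR) mice, in which all animals, controls included, carry the human allele where mouse Apoe would be. Both sexes of each genotype breathed filtered air (controls) or nPM, nano-sized particulate matter collected from city air, 5 h a day on 3 days of each week. B6 mice, labelled 4 months old, were exposed over 8 weeks and APOE-TR mice, labelled 6 months old, over 15 weeks. Strain, age, length of exposure and batch of nPM therefore cannot be told apart between the tables, which were also scaled separately, so levels of B6 mice were not tested against those of APOE-TR mice.

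Immediate early genes are transcribed within minutes of a stimulus without the need for new protein. In neurons of the cortex, calcium entry during synaptic activity activates kinases that act on CREB and SRF, transcription factors already bound at these promoters, and the short-lived transcripts make the genes standard markers of recent activity. Fos, Fosb and Junb encode subunits of the AP-1 transcription factor. Egr1, Egr2 and Egr4 encode zinc finger transcription factors, Npas4 a neuronal transcription factor of the bHLH-PAS family and Nr4a1 an orphan nuclear receptor. The other members are effectors. Arc encodes a synaptic protein that promotes removal of AMPA receptors, and Dusp1 encodes a phosphatase that switches off MAP kinases.

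Values are CPM (library-size scaled reads, on the authors' scale). The denominator is not given in the sources used here, and the CPM of a mouse summed to 526568 to 667121 in B6 and 670445 to 880442 in APOE-TR mice, the highest sums being those of APOE3 female controls 61 (880442) and F6 (792914). The tests below were run after rescaling within each table, and the CPM printed are as deposited. Estimated depth was 17.8 to 22.3 M (1e6) reads in APOE-TR females, 22.4 to 31.3 M in APOE-TR males and 2.05 to 24.4 M in B6 mice, the shallowest being B6 male control 6. Group means of Xist were 200 to 766 CPM in females and at most 0.191 CPM in males, and those of mouse Apoe 208 to 396 CPM in B6 and 10.7 to 25.8 CPM in APOE-TR mice. Single APOE3 female controls ran from 90.3 to 910 CPM for Xist, against 607 to 728 CPM in APOE4 female controls. The 7 neuronal marker genes listed were above the lowest value in every mouse, so the labelled tissue held neurons throughout. Libraries of APOE3 female controls 61 and F6 (its column bears a number found in no title of the group) stood apart, with levels that fell with transcript length (slopes of −0.54 and −0.39 log2 units per doubling of length, relative to the mean of the table), followed among APOE3 nPM females by mouse 55 (−0.22). In whole tissue, fewer cells expressing a gene and less RNA per cell cannot be told apart.

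All 10 genes were detected in all mice, except that Egr4 stood at the lowest value of its library (0.033 CPM, a gene without reads) in B6 female nPM 50. Per kilobase of the longest annotated transcript, Egr1 had the highest median of the 32 APOE-TR mice at 49.6 CPM per kb, followed by Arc (46.7 CPM per kb), Nr4a1 (20.8 CPM per kb), Junb (12.6 CPM per kb), Dusp1 (9.94 CPM per kb) and Fos (9.30 CPM per kb). Npas4, Egr4, Fosb and Egr2 had medians between 2.07 and 3.31 CPM per kb. The 16 B6 mice also had Egr1 and Arc first (32.8 and 14.1 CPM per kb) and Egr4 last (0.491 CPM per kb). The fewest reads behind a level of a member were 22 in the APOE-TR table, for Egr2. In B6 mice, besides Egr4, they were 7 for Egr2, 9 for Fosb and 23 for Junb. Single values of the low genes therefore carried counting error as well as the spread between mice.

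Levels spread widely within groups of equal treatment. Fos ranged from 1.71 to 25.8 CPM among the 4 B6 male controls, and Egr2 from 0.637 to 7.98 CPM among the 4 APOE3 nPM males. The smallest spread relative to the mean was that of Npas4 in APOE4 nPM females, at 23.9 ± 1.72 CPM (SD, n = 4). Among the APOE-TR groups, the mean of Egr1 ran from 135 ± 64.9 CPM in APOE3 female controls to 270 ± 53.4 CPM in APOE4 nPM females. That of Arc ran from 96.6 ± 74.2 to 226 ± 19.2 CPM in the same groups. Every member had its highest APOE-TR group mean in APOE4 nPM females. Among the B6 groups, Egr1 ran from 120 ± 64.2 CPM in male controls to 209 ± 24.4 CPM in nPM males. There, Arc ran from 37.1 ± 33.8 CPM in male controls to 60.6 ± 16.5 CPM in nPM females, and Dusp1 was highest in nPM males, at 47.1 ± 15.2 CPM. Neighbouring groups in these orders mostly overlapped, as the plot of all mice shows.

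**Figure D1:**
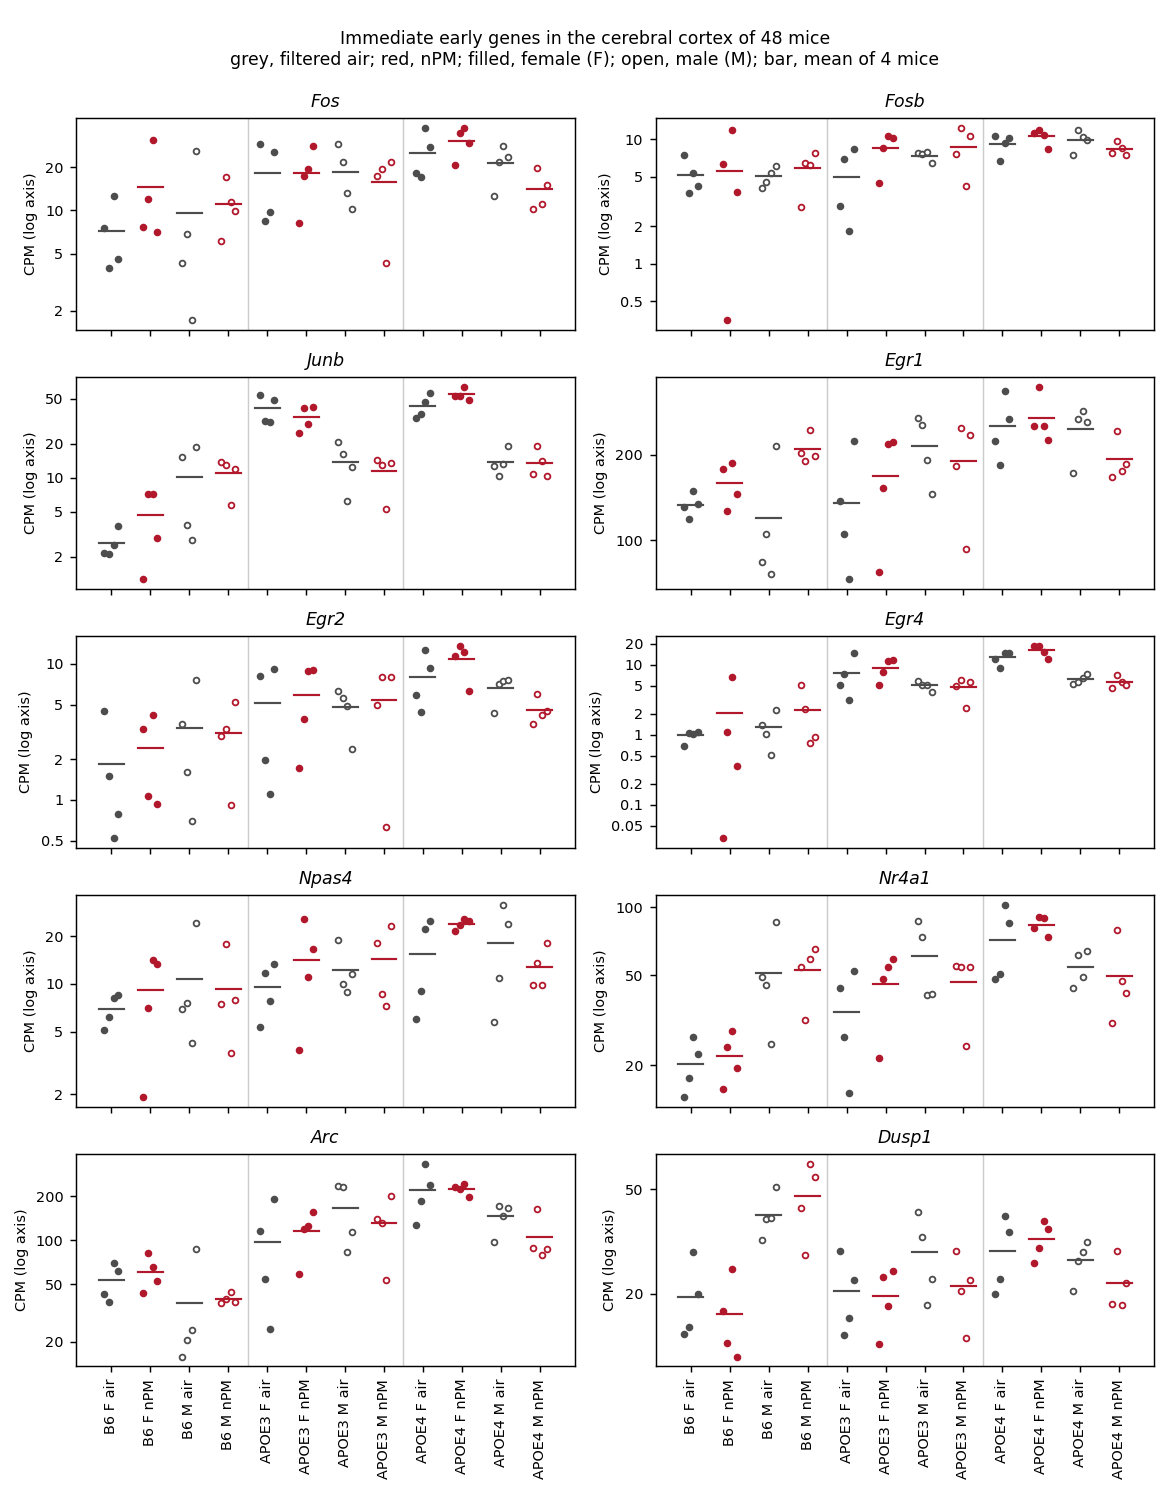
CPM (log axes) of the 10 genes in each of the 48 mice, by group (F, female; M, male; air, filtered air), where points are mice, grey is filtered air, red is nPM, filled points are females, open points are males and bars are means of 4 mice. The APOE4 nPM females sit high and close together in most panels, Arc between 199 and 244 CPM. Junb lies at 25 CPM or more in APOE-TR females and at 20.5 CPM or less in APOE-TR males. The share of all genes separated by sex in this way was not counted.

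The genes moved together from mouse to mouse. With the mean of each group removed from the log2 levels, the 45 pairs of members correlated with a mean Pearson r of 0.713 over the 32 APOE-TR mice (lowest 0.305, highest 0.937), and all 45 were above 0. Over the 16 B6 mice, 32 of the 36 pairs of 9 members were above 0, with a mean of 0.396 (lowest −0.19, Junb with Fosb). All pairs of the 15972 and 13916 genes used averaged 0.0016 in APOE-TR and 0.0010 in B6 mice. Genes of 1 library share its depth and preparation, so these are descriptions and carry no p. Nr4a1 followed the mean of the other members most closely in APOE-TR mice (r = 0.945), then Egr1 (0.936), Arc (0.922) and Fos (0.902), and Npas4 least (0.60). In B6 mice Fos was first (0.861) and Fosb last (0.225).

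Single mice set the ends of many groups. APOE3 nPM male 58 had the lowest value of its group for 10 of the 10 genes, and so did APOE3 nPM female 55. In 58 the level was 4.32 CPM for Fos, 24.4 CPM for Nr4a1 and 53.1 CPM for Arc, while the other 3 mice had 17.3 to 21.7, 54.1 to 54.7 and 132 to 202 CPM. B6 male control 6, the shallowest library, was highest of its group for 10 of the 10. In 6 of the 12 groups a single mouse was lowest for at least 7 of the genes, and in 6 groups a single mouse was highest for at least 7. The joint level, which is the mean over the 10 genes of the log2 level less that of the table, ran from −1.37 in APOE3 nPM male 58 to 1.14 in B6 male control 6.

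**Figure D2:**
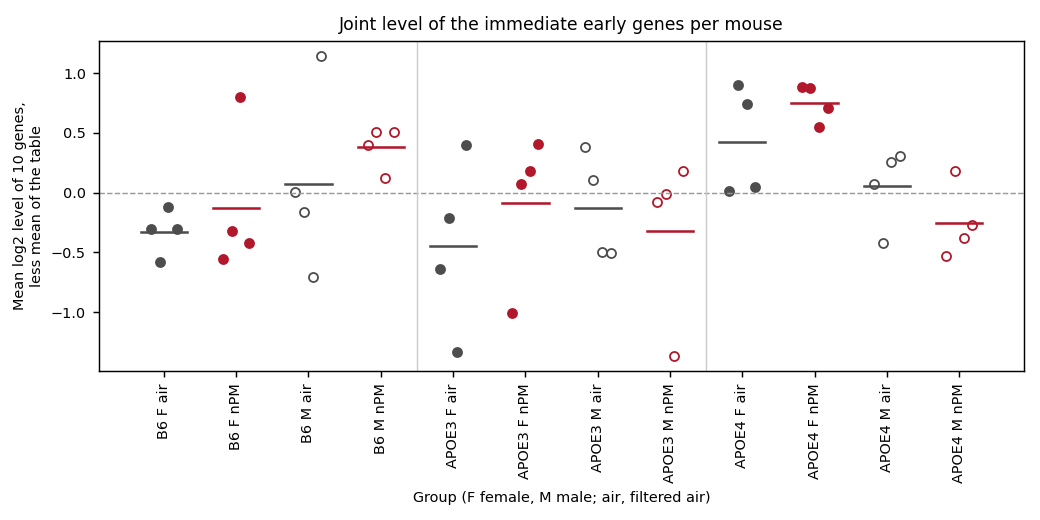
Joint level of the 10 genes in each mouse, as the mean log2 level less the mean of its table, by group, where grey is filtered air, red is nPM, filled points are females, open points are males and bars are means of 4 mice. The 4 APOE4 nPM females lie between 0.55 and 0.88, and the widest groups contain single low or high mice such as APOE3 nPM male 58 at −1.37.

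**Figure D3:**
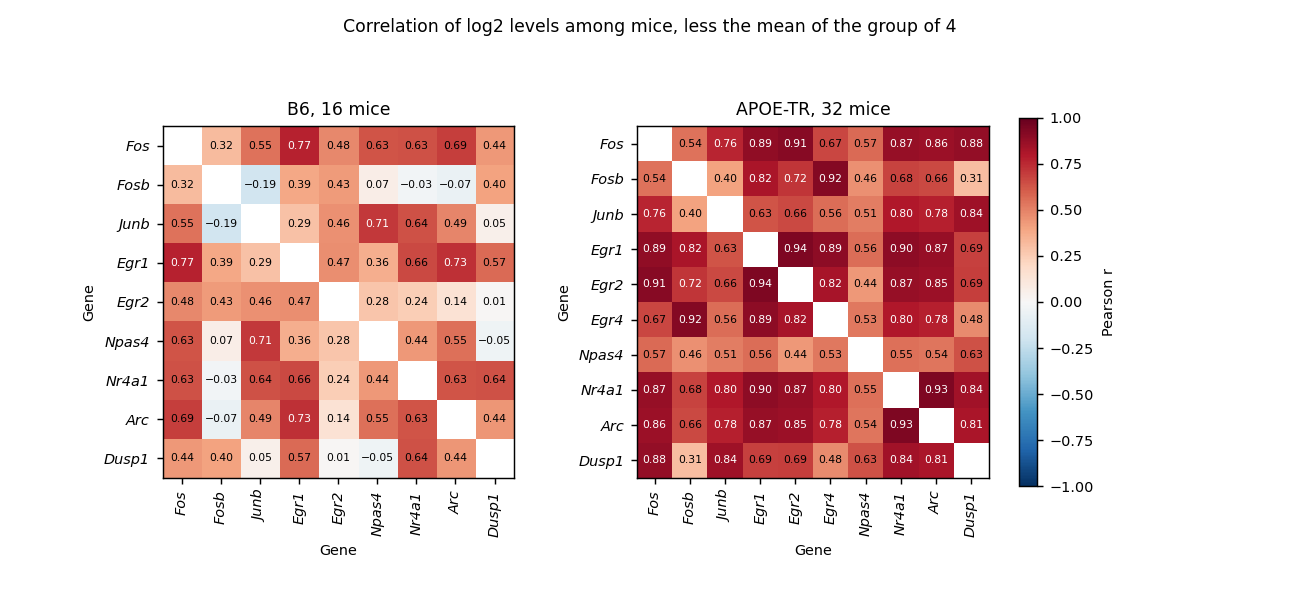
Pearson r between log2 levels of each pair of genes after removal of the group means, for 16 B6 mice (left, without Egr4) and 32 APOE-TR mice (right), on a colour scale from −1 to 1. All pairs are positive in APOE-TR mice, the lowest being Fosb with Dusp1 at 0.305, and in B6 mice 4 pairs are below 0, the lowest being Junb with Fosb at −0.19.

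Of all 11088 other genes fitted in both tables, those most like the mean of the members, by the smaller r of the 2 tables, were Midn (0.6705 in 16 B6 mice, 0.823 in 32 APOE-TR mice), Nes (0.6575 in both), Phlda1 (0.651 and 0.754), Pex5 (0.650 and 0.678) and Nr4a3 (0.751 and 0.627). Nr4a3 encodes a nuclear receptor of the same family as Nr4a1, and Phlda1 and Midn are known as early response genes. Dusp4, a relative of Dusp1, was the 6th (0.634 and 0.625).

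Promoters of 8 of the 10 genes (not Arc and Egr1) were read from RefSeq on GRCm38.p6, from 250 bases before to 50 bases after the annotated start. Those of Fos, Nr4a1, Junb and Dusp1 are shown because Fos and Nr4a1 followed the other members closely, while Junb and Dusp1 differed between alleles or sexes in the comparisons that follow. Capitals mark the CREB response element and its short core CGTCA. The Fos window is chr12:85473640-85473939 on the plus strand, that of Nr4a1 chr15:101266596-101266895 on the plus strand, that of Junb chr8:84978699-84978998 on the minus strand and that of Dusp1 chr17:26508423-26508722 on the minus strand.
Fos: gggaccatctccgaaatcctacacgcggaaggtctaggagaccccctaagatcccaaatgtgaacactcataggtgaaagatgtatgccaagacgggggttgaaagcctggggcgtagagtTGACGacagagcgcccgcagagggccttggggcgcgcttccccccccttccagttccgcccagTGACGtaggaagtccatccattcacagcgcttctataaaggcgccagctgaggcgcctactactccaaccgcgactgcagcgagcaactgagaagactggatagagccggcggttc
Nr4a1: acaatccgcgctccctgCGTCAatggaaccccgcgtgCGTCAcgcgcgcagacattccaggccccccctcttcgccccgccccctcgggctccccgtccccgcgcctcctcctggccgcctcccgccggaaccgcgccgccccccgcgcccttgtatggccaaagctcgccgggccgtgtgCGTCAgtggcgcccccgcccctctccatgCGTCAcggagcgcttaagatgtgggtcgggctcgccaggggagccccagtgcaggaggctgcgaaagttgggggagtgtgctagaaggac
Junb: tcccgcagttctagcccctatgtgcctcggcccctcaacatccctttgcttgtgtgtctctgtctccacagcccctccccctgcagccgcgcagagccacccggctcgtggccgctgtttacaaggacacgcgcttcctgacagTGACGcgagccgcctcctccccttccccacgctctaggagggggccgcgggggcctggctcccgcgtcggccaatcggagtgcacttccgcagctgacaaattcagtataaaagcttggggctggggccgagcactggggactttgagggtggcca
Dusp1: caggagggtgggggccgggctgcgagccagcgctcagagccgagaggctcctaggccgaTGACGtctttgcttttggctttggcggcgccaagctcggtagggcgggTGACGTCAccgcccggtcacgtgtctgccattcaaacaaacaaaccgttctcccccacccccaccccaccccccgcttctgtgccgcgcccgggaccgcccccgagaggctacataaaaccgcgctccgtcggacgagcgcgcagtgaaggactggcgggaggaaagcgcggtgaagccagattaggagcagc
The short core CGTCA, searched on both strands, was in the windows of 8 of the 8 genes, where 20.8% of 32851 mouse promoter windows hold it. The windows of the 7 genes with 1 window each had 58.67 to 72.33% GC, against a median of 52.67% over all windows, and the core contains a CpG. Egr2 had 5 annotated windows and was counted where any of them held the motif. The part of GC content in the share was not tested. Fos had a copy starting 66 bases upstream of the start and another at 129, Nr4a1 had 4 copies between 233 and 40 bases upstream, and Junb had 1 at 106. The whole element TGACGTCA, which contains 2 overlapping copies of the core, was in the window of Dusp1 and of no other of the 8 genes, starting 143 bases upstream, and in 1.79% of all windows. The CArG box, the site of SRF, was in an Egr2 window and in 1.63% of all windows. The TATA box TATAAA was in the Fos and Junb windows and in 13.6% of all. It started 33 bases upstream of the annotated start in Fos and at the annotated start itself in Junb. Neither the EGR site GCGTGGGCG (0.612% of all windows) nor the AP-1 site TGAGTCA (5.2%) was found in these windows. A match is a stretch of letters and was not tested as a binding site.

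The first comparison asks whether nPM inhalation changed these genes in cortex. Over all 48 mice, with sex and genotype in the model, none of the 9 genes tested was called (Egr4 was not tested because of its lowest value). Called here means a differentially expressed gene (DEG) at an unadjusted p under 0.005, the threshold of the study, and 1.48% of all genes tested were called. The 9 changes were small, from −0.08 for Dusp1 to 0.18 for Egr1 on the log2 scale (median 0.13, against 0.01 over all genes, and −0.08 in males alone), 8 of the 9 were above 0, and 0 had an unadjusted p under 0.05. For Egr1 the change was 0.18 (SE 0.139, 95% interval −0.10 to 0.46, adjusted p = 0.525 from limma), and for Arc it was 0.09 (SE 0.203, 95% interval −0.32 to 0.49), so a change of that size in either direction was not detectable at this spread.

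Within single sexes and genotypes, none of the 10 genes was called for nPM in any of the 6 comparisons of 4 against 4 mice, where 9 were tested in B6 females and 10 elsewhere. The share of all genes called was 1.2% in B6 females, 0.24% in B6 males, 0.665% in APOE3 females, 0.154% in APOE3 males, 0.272% in APOE4 females and 0.178% in APOE4 males. Control and nPM mice overlapped for every member in all 6, while 6.56%, 2.22%, 6.88%, 1.42%, 3.49% and 2.42% of all genes, in the same order, did not overlap. The estimates were higher with nPM for 7 of 9 members in B6 females (median log2 change 0.22), 9 of 10 in B6 males (0.29), 9 of 10 in APOE3 females (0.40) and 10 of 10 in APOE4 females (0.32), and for 2 of 10 in APOE3 males (−0.23) and 0 of 10 in APOE4 males (−0.27). These medians moved when 1 mouse was left out, to between 0.08 and 0.32 in B6 females, 0.13 and 0.61 in B6 males (the highest without control 6), 0.08 and 0.77 in APOE3 females (without control 61 and without nPM 55), −0.41 and 0.12 in APOE3 males, 0.17 and 0.41 in APOE4 females and −0.46 and −0.20 in APOE4 males. In APOE3 males the sign turned without nPM mouse 58. With a covariate for GC content the median was −0.28 in B6 females and −0.22 in APOE3 females, and with one for transcript length it was −0.28 in APOE3 females and −0.07 in APOE4 females. Because the genes vary together within groups, the members of such a count are not separate observations.

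In B6 males Egr1 came closest to the threshold. Its level was 84.1, 105, 75.8 and 214 CPM in controls 0, 2, 3 and 6, and 203, 191, 245 and 198 CPM in nPM mice 10, 11, 12 and 16. Control 6 lay among the nPM mice and the other controls below all of them. The log2 change was 0.90 (SE 0.277, unadjusted p = 0.00615 and adjusted p = 1.00 from limma, exact permutation p = 0.114). It was the only member with a p under 0.05 there, where 4.32% of all genes had one. Without control 6, the shallow library, Egr1 and Arc were called (log2 changes of 1.22 and 0.93). Neuronal markers were higher with nPM in B6 males for 7 of 7 genes (median 0.36, 0 called), with a summed level of 1827 to 4865 CPM in controls and 3705 to 4979 CPM with nPM, and striatal markers for 0 of 7 (median −0.57). Their part in the result was not tested.

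For Arc in B6 males, control 6 again stood apart from the other controls, here above all nPM mice. Controls 0, 2 and 3 had 15.9, 20.7 and 24.2 CPM and control 6 had 87.6 CPM, and the 4 nPM mice had 36.9 to 44.1 CPM. With all mice the log2 change was 0.41 (SE 0.401). In B6 females Arc was 37.8 to 69.8 CPM in controls and 43.3 to 81.3 CPM with nPM. Fos, the largest estimate of that group, was 3.98 to 12.7 CPM in B6 female controls and 7.11 to 31.0 CPM with nPM (log2 change 0.86, SE 0.465, exact permutation p = 0.229), the top value coming from mouse 52, which was highest of its group for 8 of the 10 genes.

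In APOE4 males all 10 estimates were below 0, and Fos, Egr1, Egr2 and Arc had an unadjusted p under 0.05, where 4.14% of all genes had one. Arc was 97.8, 172, 146 and 167 CPM in controls 3, 21, 32 and 91, and 88.6, 165, 78.9 and 87.6 CPM in nPM mice 23, 33, 65 and 93. Thus 3 of the 4 nPM mice lay below every control, and mouse 33 lay among the controls. The log2 change of Arc was −0.50 (SE 0.225, adjusted p = 0.954 from limma, exact permutation p = 0.143), that of Fos −0.58 (SE 0.238) and that of Egr2 −0.49 (SE 0.175). Leaving out single libraries changed these counts. Without control 3, the lowest control for 9 of the 10 genes, Fos, Egr1 and Egr2 were called, and without nPM mouse 33 Arc and Egr2 were called.

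In APOE4 females the estimates lay between 0.11 for Arc and 0.84 for Npas4, and Junb and Npas4 had an unadjusted p under 0.05, where 5.59% of all genes had one. Npas4 was 6.04, 8.98, 22.1 and 24.9 CPM in controls 7, 21, 26 and 38 and 21.7 to 25.6 CPM in the 4 nPM mice. The controls fell into a low and a high pair, and the nPM mice lay with the high pair (exact permutation p = 0.200). Without control 38, Junb was called (log2 change 0.50). In APOE3 females the largest estimate was that of Fosb, with 6.91, 1.83, 8.36 and 2.93 CPM in controls 52, 61, 63 and F6 and 4.49, 8.46, 10.7 and 10.2 CPM in nPM mice 55, 59, 67 and 70 (log2 change 0.89, SE 0.471). Controls 61 and F6, the libraries with the steepest length slopes, were its lowest mice. In APOE3 males, where the group contains mouse 58, the estimates ran from −0.39 for Dusp1 to 0.14 for Fosb.

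Whether the nPM response itself differed between groups was tested directly. Between sexes, the female response less the male response, averaged over the 3 genotypes, was above 0 for 9 of the 9 genes tested (median 0.46, from 0.15 for Egr1 to 0.62 for Egr2), but 0 were called, where 1.97% of all genes were, and the smallest adjusted p was 0.460 from limma (Nr4a1, 0.48, SE 0.292). The 7 striatal markers were above 0 in this contrast for 7 of 7 (median 0.74, 0 called), and with nPM they were higher for 7 of 7 in B6 females (median 1.1), in APOE4 females (0.23) and in APOE4 males (0.35), for 2 of 7 in APOE3 females (−0.33) and for 0 of 7 in males of B6 and APOE3. Their part in the result was not tested. Between alleles, the APOE4 response less the APOE3 response was above 0 for 3 of 10 genes (median −0.04, and −0.23 to 0.10 when 1 mouse was left out), 0 were called, where 0.726% of all genes were, and the 95% interval for Arc ran from −1.30 to 0.64.

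The second comparison sets APOE4 against APOE3. Over all 48 mice, with sex and nPM in the model, Egr1 was called, and it was 1 of the 9 genes tested where 1.88% of all genes were called. All 9 estimates were above 0 (median log2 difference 0.47, against 0.01 over all genes), and 5 of them, Fosb, Egr1, Egr2, Arc and Nr4a1, had an unadjusted p under 0.05, where 15.1% of all genes had one. Egr1 was 1.46-fold higher in APOE4 mice (log2 difference 0.54, SE 0.17, unadjusted p = 0.00248, adjusted p = 0.240 from limma), so it did not pass 5% FDR. The call was lost when any 1 of 6 mice was left out (APOE4 female control 26, APOE4 female nPM 23, APOE3 female controls 52 and 61, APOE3 female nPM 55 or APOE3 male nPM 58), and also with a covariate for transcript length (0.40) or GC content (0.48).

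The allele estimates were larger in females than in males. Among nPM females, Arc, Junb and Dusp1 were called, 3 of 10 members where 1.14% of all genes were called and 0.43% were called as higher in APOE4. All 10 estimates were above 0 (median 0.85), and 9 had an unadjusted p under 0.05, where 9.1% of all genes had one. Arc, Egr1, Egr4, Junb, Nr4a1 and Dusp1 did not overlap between the alleles, APOE4 being higher, where 2.88% of all genes did so.

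Arc was 58.7, 120, 126 and 157 CPM in APOE3 nPM females 55, 59, 67 and 70, and 233, 226, 244 and 199 CPM in APOE4 nPM females 8, 23, 27 and 39. Every APOE4 mouse was above every APOE3 mouse, and the APOE4 mice differed little among themselves. The difference was 2.09-fold (log2 1.06, SE 0.255, 95% interval 0.49 to 1.63, adjusted p = 0.323 from limma, exact permutation p = 0.0286, the smallest that 4 against 4 mice can give).

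Junb was 25.0, 41.5, 30.1 and 42 CPM in the same APOE3 mice and 52.6, 52.4, 63.9 and 49.1 CPM in the APOE4 mice (1.61-fold, log2 0.69, SE 0.166, adjusted p = 0.332 from limma). Dusp1 was 12.9, 23.2, 18 and 24.3 CPM against 26.1, 29.7, 37.7 and 35.2 CPM (1.68-fold, log2 0.75, SE 0.194, adjusted p = 0.377 from limma). Nr4a1 was 21.5 to 58.8 CPM against 73.9 to 90.3 CPM and Egr4 5.14 to 11.7 CPM against 12 to 18.8 CPM, both just outside the threshold (unadjusted p = 0.00526 and 0.00636 from limma). Egr1 was 77.5, 153, 219 and 222 CPM against 252, 348, 254 and 226 CPM. The gap between the highest APOE3 and the lowest APOE4 mouse was narrow for Egr4 (11.7 and 12 CPM) and Egr1, and APOE3 mouse 55 was the lowest of the 8 mice for all 6 genes.

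The count of 3 moved with single libraries and settings. Without APOE3 mouse 55 or without APOE3 mouse 70, Egr4 and Nr4a1 were called as well (5 of 10). It was 1 without APOE4 mouse 8 and 0 without APOE4 mouse 23 or 27. By gene, the call of Arc was lost without any 1 of 3 of the 8 mice. The calls of Junb and Dusp1 were each lost without any 1 of 4. None was called when the variance was shared over the 8 APOE-TR groups or with a covariate for transcript length, where Arc was 0.61 higher.

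Control females had estimates of similar size and more spread. All 10 were above 0 (median 0.95), 0 were called, where 5.86% of all genes were, and 5 had an unadjusted p under 0.05 (Fosb, Egr1, Egr4, Arc and Nr4a1), where 41.1% of all genes had one. Arc was 54.2, 24.6, 192 and 115 CPM in APOE3 controls 52, 61, 63 and F6, and 127, 186, 335 and 241 CPM in APOE4 controls 7, 21, 26 and 38 (log2 difference 1.56, SE 0.604, exact permutation p = 0.0857). APOE3 control 63 lay among the APOE4 mice. Egr1 was 105, 72.8, 224 and 138 CPM against 223, 184, 335 and 266 CPM (log2 difference 1.05, SE 0.345, exact permutation p = 0.0571). No member separated the alleles, while 29.1% of all genes did, and the APOE3 group contains controls 61 and F6. Without APOE3 control 63, Arc, Egr1 and Egr4 were called.

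Among control males 7 of 10 estimates were above 0 (median 0.24), 0 were called, where 1.36% of all genes were, and Fosb had the smallest p, with 6.44 to 7.86 CPM in APOE3 and 7.47 to 11.9 CPM in APOE4 mice (log2 difference 0.39, SE 0.127, unadjusted p = 0.0111 from limma, where 5.82% of all genes had a p under 0.05). Among nPM males 8 of 10 were above 0 (median 0.06, but −0.23 without APOE3 mouse 58, −0.06 without APOE4 mouse 33 and −0.49 with a covariate for transcript length), 0 were called, where 1.95% of all genes were, and 0 had a p under 0.05. No member separated the alleles in control or nPM males, while 3.76% and 5.74% of all genes did. Arc was 78.9 to 165 CPM in APOE4 and 53.1 to 202 CPM in APOE3 nPM males.

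**Figure D4:**
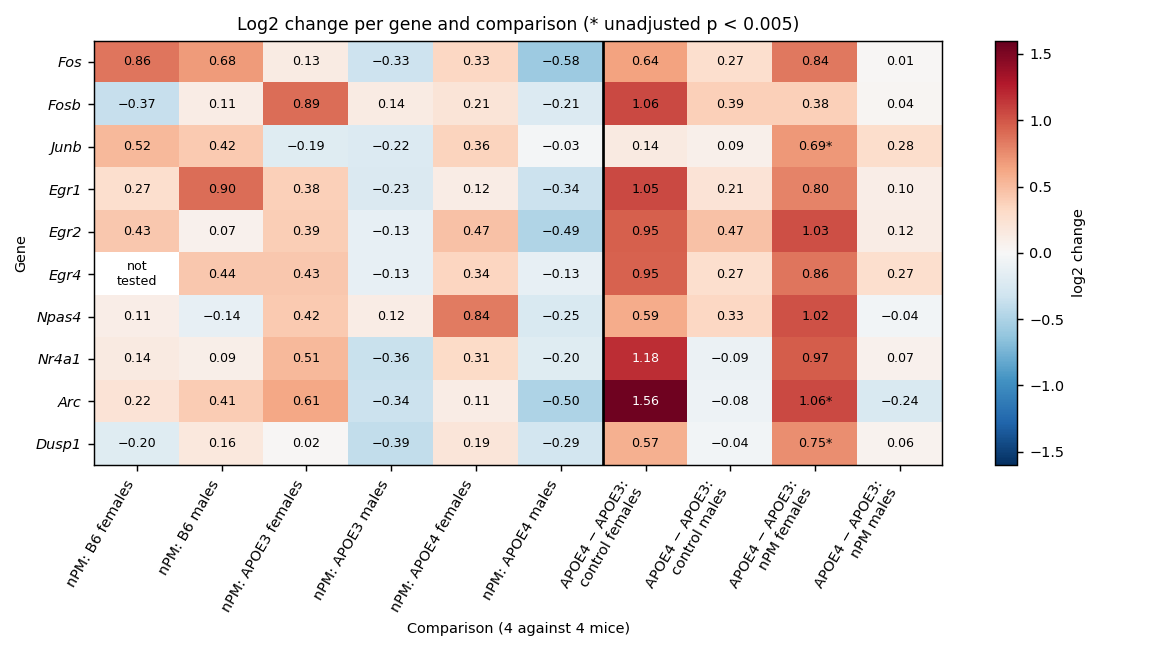
Log2 change of each gene in the 6 nPM comparisons (left of the line) and the 4 comparisons of APOE4 with APOE3 (right), each of 4 against 4 mice, on a colour scale of log2 change where an asterisk marks an unadjusted p under 0.005. The female allele columns are above 0 for all 10 genes, with medians of 0.95 in controls and 0.85 with nPM, and the only asterisks are those of Junb, Arc and Dusp1 in nPM females.

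Over females of both exposures (8 against 8 mice, a comparison chosen after the values above were seen), Arc, Nr4a1, Egr1, Dusp1 and Egr4 were called, 5 of 10 where 15.6% of all genes were, and 6 passed 5% FDR (the 5 and Fosb), where 32.4% of all genes did. Arc was 2.48-fold higher in APOE4 (log2 1.31, SE 0.356, adjusted p = 0.0290 from limma), Nr4a1 2.11-fold (1.08, SE 0.272), Egr1 1.90-fold (0.93, SE 0.253), Egr4 1.87-fold (0.91, SE 0.261) and Dusp1 1.58-fold (0.66, SE 0.185). With a covariate for GC content or for transcript length 0 were called, Arc being 0.71 and 0.57 higher. The count was 1 without APOE4 control 26, 2 without APOE4 control 38 or APOE3 nPM 55, and 3 without APOE3 control 61, APOE4 nPM 23 or APOE4 nPM 27. By gene, the call of Egr4 was lost without any 1 of 10 of the 16 mice and that of Dusp1 without any 1 of 8. For Egr1 there were 3 such mice, for Arc 2 and for Nr4a1 0. Without APOE3 controls 61 and F6 and APOE3 nPM 55, 3 were called.

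The allele difference in females less that in males, also chosen after the values were seen, was above 0 for all 10 genes (median 0.66), and Arc was called, 1 of 10 where 12.5% of all genes were (1.47, SE 0.474, adjusted p = 0.0388 from limma). Arc and Nr4a1 passed 5% FDR, where 20.6% of all genes did, and the difference for Junb was 0.23 (SE 0.304). The call of Arc was lost when any 1 of 20 mice was left out and with both covariates.

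Markers of other cells also differed between the alleles, though not all lists kept their direction across comparisons. In nPM females the astrocyte markers were lower in APOE4 for 7 of 7 genes and the striatal markers higher for 7 of 7 (median log2 differences −0.21 and 0.62), with 0 called in either list. Endothelial markers were lower for 7 of 7 (median −0.18, 0 called). The summed striatal level was 468 to 745 CPM in APOE3 and 291 to 1555 CPM in APOE4 nPM females, and the summed neuronal level 6054 to 6861 and 5317 to 6280 CPM, with no listed marker at its lowest value. In control females the summed striatal level was 310 to 1220 CPM in APOE3 and 478 to 991 CPM in APOE4 mice. There, endothelial markers were higher in APOE4 for 6 of 7 (median 0.37) and striatal markers for 3 of 7 (median −0.01). In males, striatal markers were higher in APOE4 for 0 of 7 in controls (median −0.22) and 7 of 7 with nPM (0.36). Over females of both exposures, the astrocyte genes Aqp4 (−0.58, SE 0.112) and Gja1 (−0.30, SE 0.088) were called as lower in APOE4 with 4 of 7 astrocyte markers at 5% FDR, and the neuronal genes Rbfox3 (0.32, SE 0.084) and Stmn2 (−0.29, SE 0.089) were called as higher and lower. Aqp4 was also called as lower in control females (−0.80, SE 0.183) and over all mice (−0.43, SE 0.118). In males, where no member was called, it was called as lower too (−0.31, SE 0.076, in controls and −0.27, SE 0.065, with nPM). In nPM males 4 of 7 endothelial markers were called as lower (median −0.32), where 1.95% of all genes were called, and 1 of them, Flt1, passed 5% FDR. Their part in the result was not tested.

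The third comparison is that of the sexes. In the model of 48 mice 0 of the 9 genes tested were called, where 27.2% of all genes were, and Junb and Dusp1 passed 5% FDR, where 36.7% of all genes did. The median over the members was −0.04 and turned above 0 under 15 of the settings tried. That model averages over genotypes, so the sex difference is also given within each table. Strain, age, length of exposure and batch of nPM cannot be told apart between the tables. In APOE-TR mice Junb was 25.0 to 63.9 CPM in the 16 females and 5.22 to 20.5 CPM in the 16 males. The log2 difference was 1.70 (SE 0.150, adjusted p = 1.24e-10 from limma), where 48.2% of all genes were called. The share of all genes without overlap between these sexes was not counted. In B6 mice it was lower in females, 1.25 to 7.20 CPM against 2.80 to 18.5 CPM (−1.38, SE 0.373). Nr4a1 and Dusp1 were lower in B6 females (−1.23, SE 0.219, and −1.27, SE 0.203) and near 0 in APOE-TR mice (0.04, SE 0.209, and −0.0018, SE 0.145), where Egr4 was higher in females (0.89, SE 0.164). Arc went the other way in B6 mice, being higher in females (0.69, SE 0.250, adjusted p = 0.0469 from limma), and was 0.13 (SE 0.270) in APOE-TR mice. In these fits 48.2% of all genes in APOE-TR mice and 19.3% in B6 mice were called.

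The sex difference in APOE-TR mice less that in B6 mice, chosen after the values were seen, was 3.08 for Junb (SE 0.365, adjusted p = 5.46e-09 from limma), 1.27 for Nr4a1 (SE 0.310) and 1.27 for Dusp1 (SE 0.243). These 3 of 9 genes were called and also passed 5% FDR, where 40.4% and 51.6% of all genes did. Depth did not overlap between the sexes of APOE-TR mice, and GC slopes lay between −0.49 and 0.08 in B6 females and between 0.02 and 0.47 in B6 males. With a covariate for GC content the differences of Nr4a1 (0.19) and Dusp1 (0.95) were not called, and that of Junb was (1.58). Cell markers differed in the same contrast. Endothelial markers were below 0 for 7 of 7 (median −1.6, 5 called) and neuronal markers for 6 of 7 (median −0.59, 4 called as lower and Rbfox3 as higher). Oligodendrocyte markers were above 0 for 7 of 7 (median 0.55, 3 called). Microglial markers were above 0 for 5 of 7 with a median of only 0.06. Of these, C1qa (1.91, SE 0.194) and Tmem119 (1.51, SE 0.226) were called as higher. The part of cell markers in the result was not tested.

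Other genes of the pathway were counted from 3 lists. Of 30 further immediate early and early response genes, 29 were tested in nPM females and 24 were higher in APOE4 (median 0.19). Of the 29, 1 was called, Trib1, a pseudokinase gene (0.59, SE 0.135), where 1.14% of all genes were called. Over females of both exposures 4 of 29 were called, all higher, where 15.6% of all genes were called, and the 3 with the smallest p were Csrnp1 (0.65, SE 0.150), the clock gene Per1 (1.01, SE 0.270) and Trib1 (0.57, SE 0.159). Of 17 delayed activity-regulated genes, 15 of 17 were higher in nPM females (median 0.11) with 0 called, and over all females 2 of 17 were called, where Nptx1, which encodes a neuronal pentraxin, was higher (0.57, SE 0.163) and Rheb, which encodes an activator of mTORC1, lower (−0.52, SE 0.150). Of 30 upstream regulators, such as CREB coactivators and MAP kinases, 18 of 30 were higher in nPM females with 0 called, and over all females 4 of 30 were called, Elk4, Ep300 and Crtc2 being higher (0.45, 0.58 and 0.48) and Map2k1 lower (−0.26). None of the 3 counts over females of both exposures exceeded the share of all genes called there. In the model of 48 mice Per1 (0.62, SE 0.192) and Mef2d (0.47, SE 0.159), which encodes an activity-regulated transcription factor, were called as higher in APOE4.

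In the difference of the allele effect between sexes, the lists had 1, 3 and 5 genes called of 29, 17 and 30 tested, where 12.5% of all genes were called. They included Trib1 (0.73), Sorcs3 (0.45), Nptx1 (0.56), Elk4 (0.47), Ep300 (0.60) and Hdac4 (0.41), all more positive in females, and Rheb (−0.53) and Map2k1 (−0.30). In the difference of the sex effect between tables, 12 of 25, 8 of 15 and 15 of 29 listed genes were called, where 40.4% of all genes were, so these counts lay near that share. Gadd45g (3.19), Ier2 (2.24) and Btg2 (1.76), early response genes like Junb, were the most positive by p, with Dusp5 (−0.73) and Klf10 (−0.78) below 0. The delayed genes called were all below 0, with Homer1 (−1.48), Pcsk1 (−1.70) and Sorcs3 (−0.87) first, and among regulators Elk1 (1.06), Crtc2 (1.23) and Map2k2 (0.96) stood against Rps6ka3 (−1.18), Camk4 (−1.12) and Mef2c (−1.11).

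For nPM the same lists were counted beside the share of all genes called. In the model of 48 mice 0 of 25, 0 of 15 and 0 of 29 were called, where 1.48% of all genes were. Across the 6 comparisons within sex and genotype, 3 of the early response genes were called. In B6 females it was Per1 (1.08, SE 0.315), 1 of 25 tested where 1.2% of all genes were called. In APOE3 males it was Maff (0.50, SE 0.130), 1 of 29 where 0.154% of all genes were. In APOE4 males it was Nr4a3 (−0.43, SE 0.121), 1 of 29 where 0.178% of all genes were. Of the regulators, 1 of 30 was called in APOE3 males, Elk1 (0.18, SE 0.049). These genes were named because they were called, and none passed 5% FDR.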

How the data were processed

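Cerebral cortex RNA of 48 mice was sequenced and, per the labels and methods, aligned to mm10 with TopHat2 2.0.8b and quantified in Partek. The authors deposited CPM values in 2 tables, scaled separately, one for B6 and one for APOE-TR mice. Within a mouse, most low values were whole multiples of 1 read above the lowest value (87.68 to 98.4% in B6 and 96.15 to 97.14% in APOE-TR mice, tolerance 0.1), which gave the depth estimates. 1 column, F6, was assigned to its group only.

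Genes above the lowest value in every mouse of a comparison were rescaled by TMM within their table, and log2(CPM + 0.5) was fitted with limma 3.58.1 (trend, R 4.3.3). Fold changes are on this scale, which understates changes of low genes. P-values were adjusted by Benjamini-Hochberg over all genes tested. Exact permutation tests were two-sided over 70 labelings. The labels do not say that mice came from separate litters or cages, so p-values measure the spread between these mice. Reads recovered in the APOE-TR table were also tested with edgeR 4.0.16 (quasi-likelihood) and DESeq2 1.42.0, and ComBat came from sva 3.50.0. Scripts were tested on simulated data.

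All 10 members are described whatever their values. From 3 lists of related genes, up to 3 genes in each direction with the smallest p were named, where at least 1 member was called. Listed genes called for nPM within sex and genotype were named as well, although no member was called there. The genes most like the members are the top 5 by the smaller r of the tables. The members and lists were chosen with earlier results of these data known, and covariates for transcript length and GC content and 3 comparisons were added after the data were seen. Promoter sequences came from RefSeq (GRCm38.p6).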

Additional observations from a re-analysis of the deposited data

Results flagged for a closer look

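Among 120 groups of 4 mice (10 genes in 12 groups), 7 held a mouse far from the other 3 by Dixon's test, where chance flags about 1 in 20. APOE3 nPM male 58 was low for Fos (4.32 CPM, the next mouse having 17.3 CPM), Junb (5.22 CPM, next 12.9 CPM) and Nr4a1 (24.4 CPM, the others 54.1 to 54.7 CPM). APOE3 male control 73 was low for Fosb (6.44 CPM, next 7.63 CPM), APOE4 male control 3 for Egr2 (4.39 CPM, next 7.17 CPM) and B6 female control 40 for Egr4 (0.698 CPM, next 1.04 CPM). APOE4 nPM male 33 was high for Arc (165 CPM, next 88.6 CPM).

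The sex difference in APOE-TR mice less that in B6 mice, tested as a contrast of group means, was 3.08 on the log2 scale for Junb, 1.27 for Nr4a1 and 1.27 for Dusp1. The allele difference in females less that in males was 1.47 for Arc.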

How the results depend on the processing

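No member that was called changed its sign under any setting. The median change over the members changed its sign under at least 1 setting in 9 of 18 comparisons. By single mice left out, these were nPM in APOE3 males (−0.23, and 0.12 without nPM 58), APOE4 against APOE3 in nPM males (0.06, down to −0.23), female against male (−0.04, up to 0.04) and the difference of the nPM response between alleles (−0.04, up to 0.10). By a GC covariate, nPM in B6 females (−0.28) and APOE3 females (−0.22) and the difference of the sex effect between tables (−0.20) turned, and by a length covariate nPM in APOE3 females (−0.28) and APOE4 females (−0.07). For nPM over all mice the median was −0.08 in males alone. For nPM, the count of members called rose from 0 to 1 in B6 males (voom, or variance shared over the groups), in APOE4 females (GC covariate), in APOE4 males (DESeq2) and over B6 mice alone. For APOE4 against APOE3 it went from 1 to 0 over all mice (GC or length covariate, nPM mice only, or without 3 APOE3 female libraries) and to 2 over APOE-TR mice alone. It went from 0 to 5 in control females (shared variance), from 0 to 1 in control males (DESeq2 or length covariate) and from 0 to 3 in nPM males (length covariate). In nPM females the 3 became 5 (DESeq2 or GC covariate) or 0 (shared variance, length covariate, or depth as a covariate over 32 mice). For females of both exposures the 5 became 3 (edgeR, or without the 3 libraries) or 0 (either covariate). The difference of the allele effect between sexes went from 1 to 0 (edgeR, either covariate, or without the 3 libraries) or 2 (DESeq2). Between sexes the 0 became 1 (pseudocount of 2 CPM, voom or GC covariate), 2 (ComBat, length covariate or APOE-TR mice alone) or 3 (B6 mice alone). The cause was not tested.

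Leaving out each mouse in turn gave 0 to 2 members called for nPM in B6 males, 0 to 1 in APOE4 females and 0 to 3 in APOE4 males. For APOE4 against APOE3 it gave 0 to 1 over all mice and in control males, 0 to 3 in control females, 0 to 5 in nPM females and 1 to 6 in females of both exposures. It gave 0 to 3 for the difference of the allele effect between sexes and 0 to 1 between sexes.

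No paired analysis was possible because the groups compared share fewer than 2 animal numbers. edgeR and DESeq2 were not run where B6 mice entered, since their low values were less often whole. Precision is limited by 4 mice per group and the spread between them.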
